A study of Mus musculus with 17 samples.

Results

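The potassium channel genes, taken as every autosomal protein-coding gene of the mouse annotation (GENCODE vM21, build mm10) whose symbol starts with Kcn, numbered 92 of 20780 autosomal protein-coding genes. A region of open chromatin was assigned to a channel gene where it overlapped the gene body extended by 2 kb on each side, and it was called a promoter region where an annotated start site of that gene lay within 1 kb. By this rule, 1461 of 147420 regions (0.991%) belonged to a channel gene, of which 96 were promoter regions, 1215 were intronic, 115 touched an exon and 35 lay in the flanks. The chromatin came from neuronal (NeuN-positive) nuclei sorted from the bilateral nucleus accumbens of C57BL/6J mice (C57BL/6 in the labels) aged 52 to 54 days, and it was profiled by ATAC-seq, in which a transposase cuts and tags accessible DNA. Females in diestrus, females in proestrus and males were each studied as controls, or 1 hour after an intraperitoneal injection of 10 mg/kg cocaine. There were 3 libraries in each of the 6 groups except male cocaine, which had 2, and each library pooled 3 animals. For diestrus cocaine library 2 the stage label reads NA, so the title alone places it in diestrus. The study's methods describe the controls as the baseline without cocaine and name no vehicle injection, so cocaine and the injection cannot be told apart. Nothing in the labels says how the pools were spread over litters or days, so the p-values measure the spread between these pools.

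Potassium channels set the resting potential of a neuron and end its action potentials. Voltage-gated (Kv) channels are built from pore subunits, such as the A-type Kcna4 and Kcnd2, the fast delayed rectifiers of the Kcnc family and the M-current subunits Kcnq3 and Kcnq5. Silent modifier subunits and auxiliary subunits, among them the Kcnip proteins that bind Kcnd channels and the Kcnab beta subunits, change how these pores open and where they are placed. Inward rectifiers include Kcnj2 and Kcnj4, which hold striatal projection neurons at their hyperpolarized resting state, and the G protein-gated subunits Kcnj3, Kcnj6 and Kcnj9. Two-pore (Kcnk) channels carry leak currents. The calcium- and sodium-activated group holds the large-conductance channel Kcnma1 with its beta subunits, the small-conductance Kcnn channels and the sodium-activated Kcnt1 and Kcnt2. Accessible chromatin at a promoter marks a gene as open to transcription, and accessible regions inside introns often act as enhancers, but accessibility is not a measure of channel RNA or protein.

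Cocaine induces AP-1, a family of transcription factor dimers of Fos and Jun proteins that bind the palindrome-like letters TGACTCA, or TGAGTCA on the other strand. These letters were searched within 100 bp of each summit. They occurred in 143 of the 1461 channel regions (9.79%), close to the 10.0% of all regions, and in 3 of the 96 channel promoter regions (3.12%). The cAMP response element TGACGTCA occurred in 2 channel regions (0.137%), against 0.494% of all regions. The AP-1 letters are shown in capitals in the plus-strand sequences that follow (mm10), which lie in channel regions that appeared or grew taller after cocaine. They do not cover all such regions with the letters. Among those not printed are a Kcnn2 region gained in proestrus and a Kcnq3 region taller in proestrus. The first set comes from the regions called in every diestrus cocaine library and in no diestrus control library.

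Kcnk2 chr1:189313942-189314002: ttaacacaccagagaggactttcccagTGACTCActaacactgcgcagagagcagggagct
Kcnh1 chr1:192401970-192402030: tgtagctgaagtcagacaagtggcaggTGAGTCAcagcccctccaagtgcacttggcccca
Kcnip4 chr5:48564183-48564243: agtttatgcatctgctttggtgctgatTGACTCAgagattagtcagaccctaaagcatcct
Kcnd2 chr6:21437350-21437410: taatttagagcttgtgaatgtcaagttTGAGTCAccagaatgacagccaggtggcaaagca
Kcnc2 chr10:112390338-112390398: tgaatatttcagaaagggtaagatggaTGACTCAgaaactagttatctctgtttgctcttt
Kcnq3 chr15:66038137-66038197: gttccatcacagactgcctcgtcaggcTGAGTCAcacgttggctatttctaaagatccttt

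The next set comes from regions that appeared in the same way in proestrus. The Kcnc2 sequence of the first set belongs here too.

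Kcnb2 chr1:15605600-15605660: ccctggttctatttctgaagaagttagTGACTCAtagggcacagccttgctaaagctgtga
Kcnq5 chr1:21843521-21843581: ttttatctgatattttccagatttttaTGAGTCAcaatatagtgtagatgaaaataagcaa

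The last set comes from regions that were taller after cocaine in males.

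Kcnh1 chr1:192241252-192241312: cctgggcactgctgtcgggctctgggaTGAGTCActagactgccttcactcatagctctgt
Kcnh1 chr1:192198842-192198902: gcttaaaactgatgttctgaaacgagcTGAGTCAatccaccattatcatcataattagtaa
Kcnq5 chr1:21492081-21492141: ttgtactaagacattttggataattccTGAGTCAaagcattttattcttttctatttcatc

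All of the windows shown are intronic. Each letter match is a description of the sequence and was not tied to binding of any factor.

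The channel genes ranged from genes without any region to genes with very many. Kcnma1 held 144 regions, Kcnq5 held 142, Kcnd2 held 121, Kcnip4 held 97 and Kcnab1 held 92, and together these 5 genes carried 596 regions, 40.8% of all channel regions. Per 100 kb of extended gene, Kcnab1 had 33.7 regions and Kcnq5 had 25, whereas the long Kcnip4 had 8.51 and Kcnh8 had 1.05. Kcnj11, the pore subunit of neuronal ATP-sensitive channels, had 46.2 per 100 kb in a short gene. No region was kept at 9 genes, namely Kcnk16, Kcnv2, Kcne4, Kcnn4, Kcnrg, Kcnmb1, Kcnj8, Kcnj16 and Kcne1. Among them, Kcnj8 is known from vascular mural cells, Kcnj16 from glia and kidney, Kcnv2 from photoreceptors and Kcne1 from heart and inner ear.

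**Figure D1:**
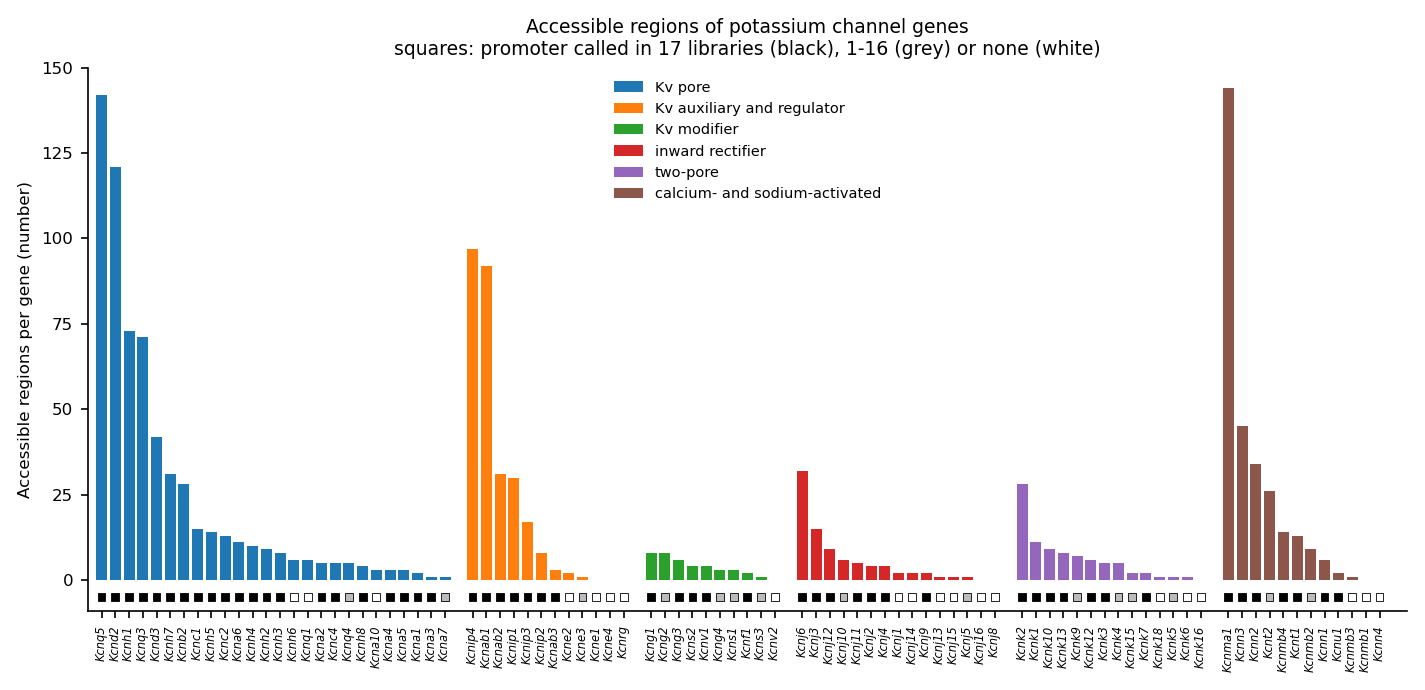
Number of accessible regions (vertical axis) of potassium channel genes (horizontal axis), grouped by role. Bars give the number of regions per gene and the squares under them show whether its promoter was called in 17 libraries (black), in 1 to 16 (grey) or in none (white). Kcnma1 with 144 and Kcnq5 with 142 regions stand highest, and white squares gather at the right of each role, where genes have few regions.

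A promoter region was found for 72 of the 92 channel genes (78.3%), against 64.3% of all autosomal protein-coding genes. It was called in all 17 libraries for 57 channel genes (62.0%), against 56.2% of all. By role, promoters called in all 17 libraries were found for 24 of 29 Kv pore genes, 7 of 12 auxiliary and regulatory genes, 5 of 10 modifier genes, 7 of 15 inward rectifiers, 7 of 14 two-pore channels and 7 of 12 calcium- and sodium-activated genes. Of 8 genes listed as mainly used outside neurons, 6 had no promoter region, namely Kcnj8, Kcnj16, Kcnj13, Kcnj1, Kcnv2 and Kcne1. The promoter of Kcnj10, an astrocyte inward rectifier, was called in 13 libraries, and an intron of the kidney channel Kcnj1 held a region called in all 17. The only promoter region of the sperm channel Kcnu1 was also called in all 17. It lay at an annotated start site inside the gene, at chr8:25911385-25912008, whereas the gene itself starts at 25849623. Away from promoters the calls were less regular, as 18.5% of the other channel regions were called in all 17 libraries, against 65.6% of channel promoter regions and 19.4% of all regions away from coding start sites.

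The labelled cell type was checked against marker genes. Promoters of the neuronal genes Rbfox3, Snap25 and Syt1 and of the striatal projection neuron genes Drd1, Drd2, Ppp1r1b, Gad1, Gad2 and Bcl11b were called in 17 of 17 libraries. The astrocyte genes Gfap and Aldh1l1, the oligodendrocyte genes Mog, Mag and Mobp, the microglial gene Cx3cr1 and the endothelial genes Cldn5 and Flt1 had no promoter call in any library. The astrocyte gene Aqp4 was called in 4 libraries (each diestrus cocaine library among them), the microglial gene P2ry12 in 4 and Csf1r in 12. The summed promoter height of the 6 striatal projection neuron genes was 45.9 to 52.0 in male controls, lower than in any other group, where it lay between 57.1 and 74.5. In such sorted pools, fewer nuclei of a type and less accessibility per nucleus cannot be told apart.

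Depth was read from the peaks, since read totals were not used here. Libraries held from 75458 to 157005 peaks, with a background of 6.26 to 9.55 reads under a summit. The lowest 2 peak numbers belonged to the male cocaine libraries. Channel regions numbered 484 to 988 per library and made up 0.896% to 1.04% of each library's regions. In groups they numbered 868 ± 65.0 (SD, n = 3) in diestrus controls and 791 ± 123 in diestrus cocaine libraries, and 771 ± 52.0 in proestrus controls and 842 ± 72.5 in proestrus cocaine libraries. Male controls had 957 ± 37.2 (n = 3), and the male cocaine libraries had 555 and 484, below every other library. At promoters the groups lay closer, with 85.0 ± 2.65 channel promoter regions in male controls and 69 in each male cocaine library.

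**Figure D2:**
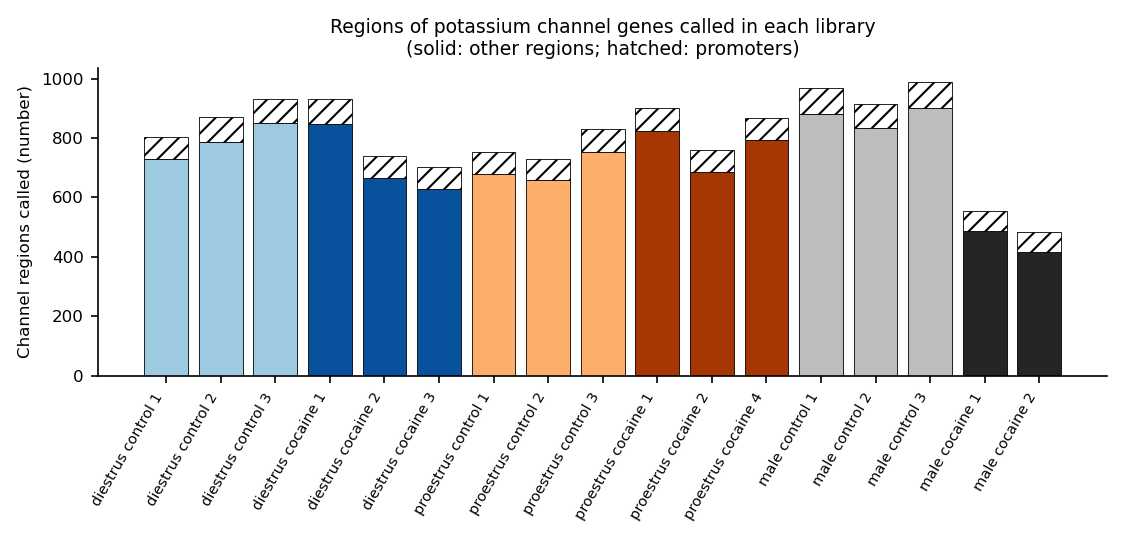
Number of potassium channel regions called (vertical axis) in each of the 17 libraries (horizontal axis), coloured by group, with promoter regions hatched and other regions solid. The male cocaine libraries, at 555 and 484, lie below all others, and the hatched part is 69 there against 71 to 87 elsewhere.

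Peak height, the fold enrichment of a peak summit over the background of its own library, was compared in the 316 channel regions (63 of them promoters, on 71 genes) that all 17 libraries had called. Heights were made comparable by quantile normalization and are given on that scale. The 3 tallest regions each held a start site of a neighbouring gene. A 51.4-fold region over an exon of Kcnj14 held the start of Cyth2 and a 47.5-fold region over an exon of Kcnk4 held the starts of Esrra and Catsperz, and neither was at a channel start site. The third, at 38.2, was the promoter of Kcnn1, which is shared with Ccdc124. For these, the height cannot be assigned to the channel gene. Among promoters at channel start sites alone, Kcnn2 was at 24.5 and Kcna1 at 20.6. The Kcnn2 region, chr18:45556420-45561846, lay at a start site inside the gene, which itself starts at 45268860. It stands for Kcnn2 among the listed genes below. The region over the start of the Kcnn2 gene, chr18:45267667-45270585, had lower deposited fold enrichments, from 8.0 to 15.8.

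Of 20 channel genes listed for their known roles in striatal neurons, 19 had a promoter in all 17 libraries. The exception was the leak channel Kcnk9, whose promoter was called in 5. The mean heights were lowest for Kcnc2 (3.43), Kcnj3 (5.44) and Kcnj6 (5.74) and highest for Kcnn2 (24.5), Kcnj9 (21.7, shared with the start of Igsf8) and Kcnn3 (18.4). Kcnj2, the inward rectifier of projection neurons, was at 16.4. The M-current subunit Kcnq3, at 16.5, was its neighbour in this order.

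**Figure D3:**
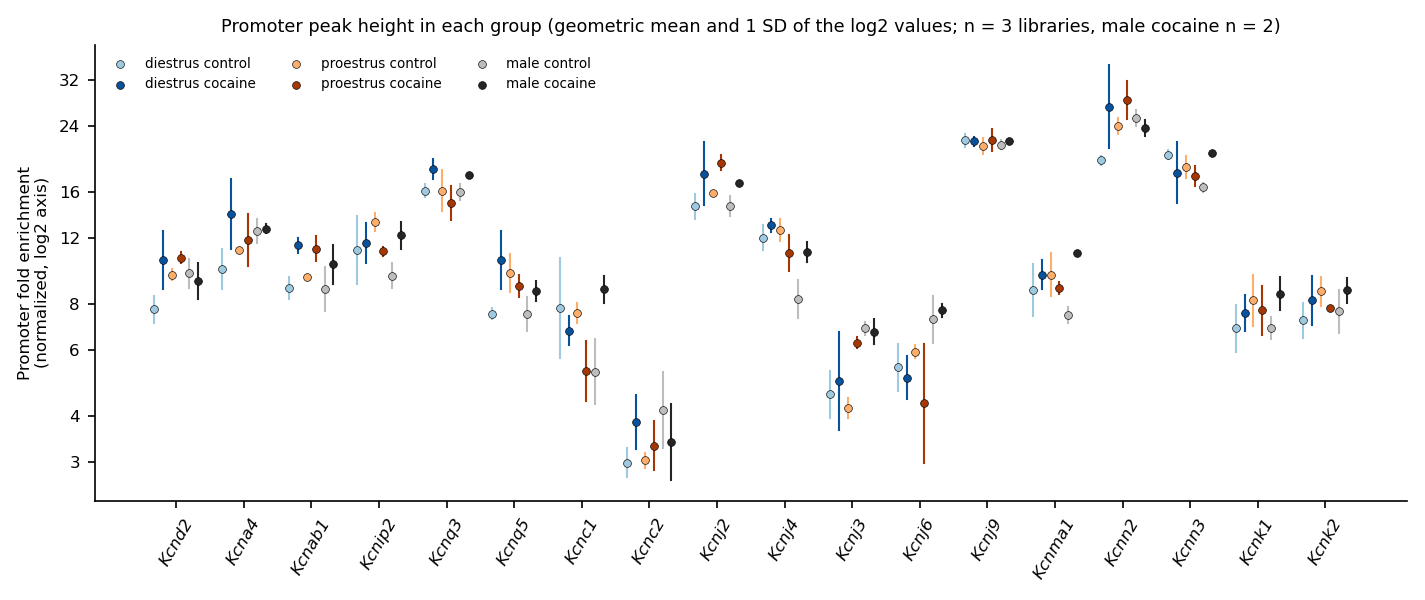
Promoter height (normalized fold enrichment, log2 axis) of 18 channel genes (horizontal axis) in the 6 groups. Points are geometric means of 3 libraries (2 for male cocaine) and bars reach 1 SD of the log2 values to each side. Kcnj9 at 21.7 barely moves between groups, whereas Kcnd2, Kcna4, Kcnq5 and Kcnn2 stand higher in diestrus cocaine than in diestrus control libraries.

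The first comparison asked which channel regions changed in height after cocaine in diestrus, a stage of low estrogen. In the fit across all 36847 regions, 16 of the 316 channel regions were higher (5.06%, where 6.65% of all regions were higher) and 26 were lower (8.23%, where 6.36% of all were lower; limma, Benjamini-Hochberg adjusted p below 0.05). Of the 63 channel promoters, 7 were higher (11.1%, against 13% of all promoter regions) and 5 lower (7.94%, against 5.35%). Of the 19 tested promoters of genes listed for their roles in striatal neurons, 4 were higher and 1 lower. The 4 were the A-type pores Kcnd2 (log2 change 0.45 ± 0.14, adjusted p = 0.036) and Kcna4 (0.49 ± 0.15, adjusted p = 0.026), the M-current subunit Kcnq5 (0.48 ± 0.15, adjusted p = 0.0311) and the small-conductance channel Kcnn2 (0.49 ± 0.13, adjusted p = 0.0127; changes are given ± SE from here on). Promoters of the Kv pore Kcna3 (0.53) and the modifier Kcnv1 (0.57) were also higher, and lower promoters included those of Kcnh4 (-0.52) and Kcna6 (-0.42). Promoter regions of Kcnab2 (-0.82) and Kcnn1 (-0.57) that are not the tallest of their gene were lower as well. The tallest Kcnn1 promoter, shared with Ccdc124, had deposited fold enrichments of 33.4, 46.9 and 41.4 in diestrus controls and 47.5, 42.5 and 25.8 after cocaine. Inside genes, 4 regions of Kcnab1 and 2 of Kcnip4 rose, where 19 and 20 regions of these genes were tested. The lower set included 3 regions each of Kcnab2, Kcnma1 and Kcnh4 (of 6, 28 and 3 tested). It also included 2 each of Kcnt1, Kcnj6 and Kcnn1 (of 4, 3 and 3 tested).

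The region lowered most in diestrus touched exons of Kcnt1, the sodium-activated channel also called Slack, at chr2:25897511-25900066. Its height was 7.20, 8.05 and 8.25 in diestrus controls and 5.77, 2.93 and 3.15 after cocaine, a log2 change of -1.06 ± 0.21 (limma, adjusted p = 0.003). The groups did not overlap, and cocaine library 1 lay closest to the controls. In proestrus the same region was at 8.25, 7.87 and 6.26 in controls and at 3.35, 3.96 and 5.26 after cocaine (-0.85 ± 0.21, adjusted p = 0.0187), again without overlap. In males it was at 7.75, 4.94 and 6.61 in controls and at 6.00 and 5.66 after cocaine (-0.12 ± 0.23, adjusted p = 0.795), where the groups overlapped. The effect in males minus that in females was 0.83 ± 0.28 (adjusted p = 0.0318).

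Kcnab2, a Kv beta subunit, had 3 lower regions in diestrus. An intronic region at chr4:152454765-152458654 was at 14.6, 16.7 and 17.5 in diestrus controls and at 13.9, 8.18 and 5.87 after cocaine (-0.89 ± 0.19, adjusted p = 0.00416). A promoter region at a downstream start site, chr4:152445737-152449903, was at 9.80, 11.2 and 9.06 in controls and at 7.64, 5.77 and 4.06 after cocaine (-0.82 ± 0.19, adjusted p = 0.00647). The groups did not overlap at either. The gene's tallest promoter, at 34.1 and shared with Nphp4, did not pass the test.

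Among the raised introns, the largest changes were smaller than these. At Kcnh7, a channel of the ether-a-go-go-related family, a region at chr2:63054576-63055696 was at 4.98, 3.81 and 3.93 in diestrus controls and at 4.79, 6.74 and 9.35 after cocaine (0.67 ± 0.20, adjusted p = 0.0277), and cocaine library 1 lay within the controls. At Kcnip4, a region at chr5:49462648-49464123 was at 3.52, 3.92 and 3.74 in controls and at 5.59, 5.77 and 6.14 after cocaine (0.65 ± 0.20, adjusted p = 0.0276), without overlap. At Kcnmb2, a beta subunit of the large-conductance channel, a region at chr3:32011768-32012683 was at 3.78, 3.81 and 3.26 in controls and at 3.97, 5.77 and 7.04 after cocaine (0.59 ± 0.17, adjusted p = 0.0227), with cocaine library 1 next to the controls.

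Diestrus cocaine library 1 was the cocaine library nearest to the controls in all 16 higher and in 24 of the 26 lower channel regions. Without it, 45 channel regions were higher and 49 lower. Without diestrus cocaine libraries 2 and 3 in turn, 1 and 0 were higher and 5 and 2 were lower. Without diestrus control libraries 1, 2 and 3 in turn, 9, 5 and 0 were higher, and without controls 2 and 3, 10 and 9 were lower. The shares over all regions, for the nearest library and for these fits, are not given here. Whether this pattern is particular to channel regions was therefore not tested. Of the marker promoters, 1 of 3 neuronal (Rbfox3, -0.44) and 1 of 6 striatal (Ppp1r1b, -0.45) were lower and 0 were higher (limma), with the others between -0.21 and 0.41, and their part in the result was not tested. GC content moved with the direction, as its median was 44.3% in the higher and 51.7% in the lower channel regions, against 46.5% in all channel regions tested, and 46.3% and 50.4% in the higher and lower of all regions. With heights centred within bins of GC content, 14 of the 16 higher and 19 of the 26 lower regions still passed.

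**Figure D4:**
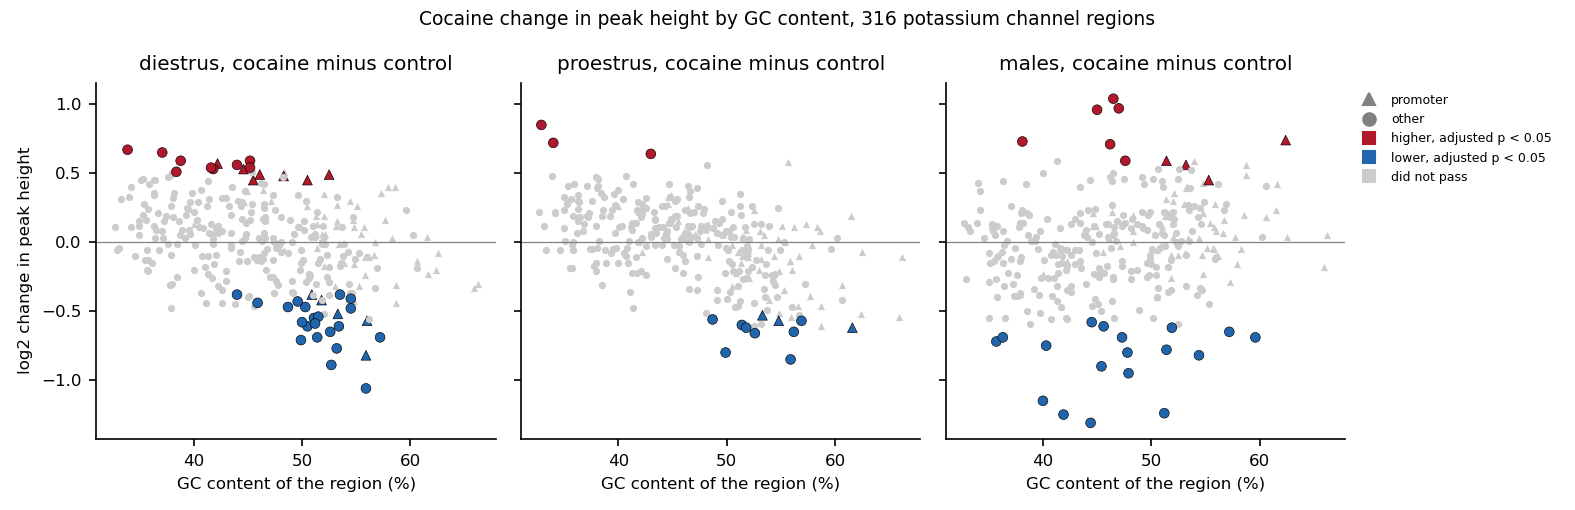
Change in height after cocaine (log2, vertical axis) against GC content of the region (%, horizontal axis) for the 316 channel regions in diestrus, proestrus and males. Red and blue symbols are higher and lower regions that passed the test, grey symbols did not, and triangles are promoters. In both female stages the lower regions sit at higher GC content, with medians of 51.7% and 53.3%, whereas in males they lie at 46.5%, the same median as that of all channel regions tested.

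In proestrus, a stage of high estrogen, fewer channel regions passed. There were 3 higher (0.949%, against 2.57% of all regions) and 11 lower (3.48%, against 2.44% of all). The 3 higher regions were intronic, and the 11 lower included 3 promoters (4.76% of channel promoters, against 1.79% of all promoter regions), those of the inward rectifier Kcnj12 (-0.62), of Kcnh3 (-0.57) and of Kcnh4 (-0.53). Of the lower regions, 6 were also lower in diestrus, namely 2 of Kcnh4 and 1 each of Kcnt1, Kcnab2, Kcnj6 and Kcnj1. These were 54.5% of the channel regions lower in proestrus and 23.1% of those lower in diestrus, against 39.3% and 15.1% over all regions. The 2 stages shared no libraries, but both tests used the same normalization and the same estimate of the spread from all 17 libraries, so they are not independent.

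The Kcnj6 region, in an intron of a G protein-gated inward rectifier at chr16:94868926-94869850, was at 8.88, 8.51 and 7.75 in proestrus controls and at 5.51, 3.73 and 5.38 after cocaine (-0.80 ± 0.19, adjusted p = 0.0158). In diestrus it was at 5.66, 9.58 and 8.06 in controls and at 5.97, 4.08 and 4.06 after cocaine (-0.71 ± 0.19, adjusted p = 0.0146). The proestrus groups did not overlap, and the diestrus groups did. A Kcnh4 region over exons at chr11:100748240-100751156 was at 8.48, 7.36 and 7.36 in proestrus controls and at 4.91, 3.85 and 6.22 after cocaine (-0.66 ± 0.18, adjusted p = 0.0351), without overlap. In males it was at 5.61, 4.82 and 5.86 in controls and at 7.67 and 8.01 after cocaine (0.53 ± 0.21, adjusted p = 0.0993).

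Of the higher regions in proestrus, 2 were in Kcnip4. At chr5:49055250-49057699 the heights were 4.95, 3.33 and 3.94 in controls and 6.97, 6.54 and 8.29 after cocaine (0.85 ± 0.20, adjusted p = 0.0144). At chr5:49022841-49023702 they were 3.29, 3.06 and 3.53 in controls and 5.33, 5.36 and 5.5 after cocaine (0.72 ± 0.21, adjusted p = 0.0386). The third, in Kcnq3 at chr15:66171573-66173682, rose from 4.71, 4.16 and 4.40 to 6.12, 7.09 and 7.56 (0.64 ± 0.19, adjusted p = 0.039). The groups did not overlap at any of the 3. These were picked because they passed the test, and the share without overlap over all regions is not given here. With median centring the latter Kcnip4 region and the Kcnq3 region did not pass (adjusted p = 0.0624 and 0.0503, limma). The GC content of the Kcnip4 regions was 32.9% and 34%, against a median of 46.5% of all channel regions tested. With heights centred within GC bins 0 of the 3 higher and 3 of the 11 lower regions still passed. The higher count was 1 without proestrus control library 1 or 3 or cocaine library 1, 0 without control library 2 or cocaine library 4, and 13 without cocaine library 2. The lower count was 0, 1 and 2 without control libraries 1, 2 and 3, and 2, 19 and 5 without cocaine libraries 1, 2 and 4. Diestrus libraries enter this comparison only through the shared normalization and the estimate of the spread. Without diestrus cocaine library 1 or 3 the proestrus comparison gave 9 or 6 higher and 24 or 19 lower regions. The shares over all regions in these fits are not given here. The direct test of the diestrus against the proestrus effect called 0 channel regions in either direction (limma, 0% of all regions higher and 0.00543% lower), so a difference between the stages was not shown.

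In males, 10 channel regions were higher after cocaine (3.16%, against 3.54% of all) and 18 were lower (5.70%, against 5.06% of all). Of the 63 channel promoters, 4 were higher (6.35%, against 2.71% of all promoter regions) and 0 lower (limma, against 1.72%). Among them were those of the fast delayed rectifier Kcnc1 (0.74 ± 0.21, adjusted p = 0.0234), of Kcna5 (0.59 ± 0.18, adjusted p = 0.0321) and of Kcnma1 (0.56 ± 0.16, adjusted p = 0.0277). Inside genes, 3 regions of Kcnh1 rose (of 14 tested), along with 1 each of Kcnma1 and Kcnq5 (of 28 and 25 tested). The lower set held 2 regions each of Kcnb2 and Kcnab1 (of 6 and 19 tested) and 1 each of 14 other genes.

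The region lowered most in males was intronic in Kcnt2, the other sodium-activated channel, at chr1:140489645-140490358. It was at 10.3, 12.9 and 12.9 in male controls and at 4.42 and 5.23 after cocaine (-1.31 ± 0.21, adjusted p = 0.00016). Every female library, control or cocaine, was between 4.13 and 7.90, so the male controls stood above all others. The effect in males minus that in females was -1.47 ± 0.25 (adjusted p = 0.000318).

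The same shape held at the next 2. In an intron of the delayed rectifier Kcnb2, chr1:15482191-15484591, male controls were at 18.1, 17.7 and 17.3 and male cocaine libraries at 7.79 and 7.08 (-1.25 ± 0.16, adjusted p = 7.1e-06), and the female libraries lay from 8.49 to 13.3. In an intron of Kcnmb4, the neuronal beta subunit of the large-conductance channel, chr10:116427837-116428894, male controls were at 9.02, 7.73 and 7.96 and male cocaine libraries at 3.73 and 3.25 (-1.24 ± 0.24, adjusted p = 0.00127). Female libraries lay from 2.96 to 6.97 there. At each of these, male controls stood above every other library.

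The raised regions had the opposite shape. In Kcnh1, a voltage-gated channel of the ether-a-go-go family, a region at chr1:192240831-192241807 was at 3.33, 3.52 and 2.60 in male controls and at 5.62 and 7.34 after cocaine (1.04 ± 0.20, adjusted p = 0.000832). A further Kcnh1 region, chr1:192437868-192440663, was at 8.36, 7.20 and 7.36 in male controls and at 16 and 14 after cocaine (0.97 ± 0.15, adjusted p = 7.74e-05). In Kcnma1, a region at chr14:23518188-23521496 was at 4.94, 4.28 and 5.86 in male controls and at 9.37 and 10.0 after cocaine (0.96 ± 0.19, adjusted p = 0.00165). Female libraries lay from 3.94 to 7.46, from 10.1 to 16.9 and from 6.34 to 12.3 in these regions, so male controls stood below every other library in each. The lowered and raised regions were picked for the male change, which uses the same male controls, so this shape is favoured by the choice. Over all autosomal regions, 13.1% were higher and 12.8% lower in male than in female controls. The share with male controls outside all other libraries is not given here. The first of the Kcnh1 regions holds the AP-1 letters printed above.

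**Figure D5:**
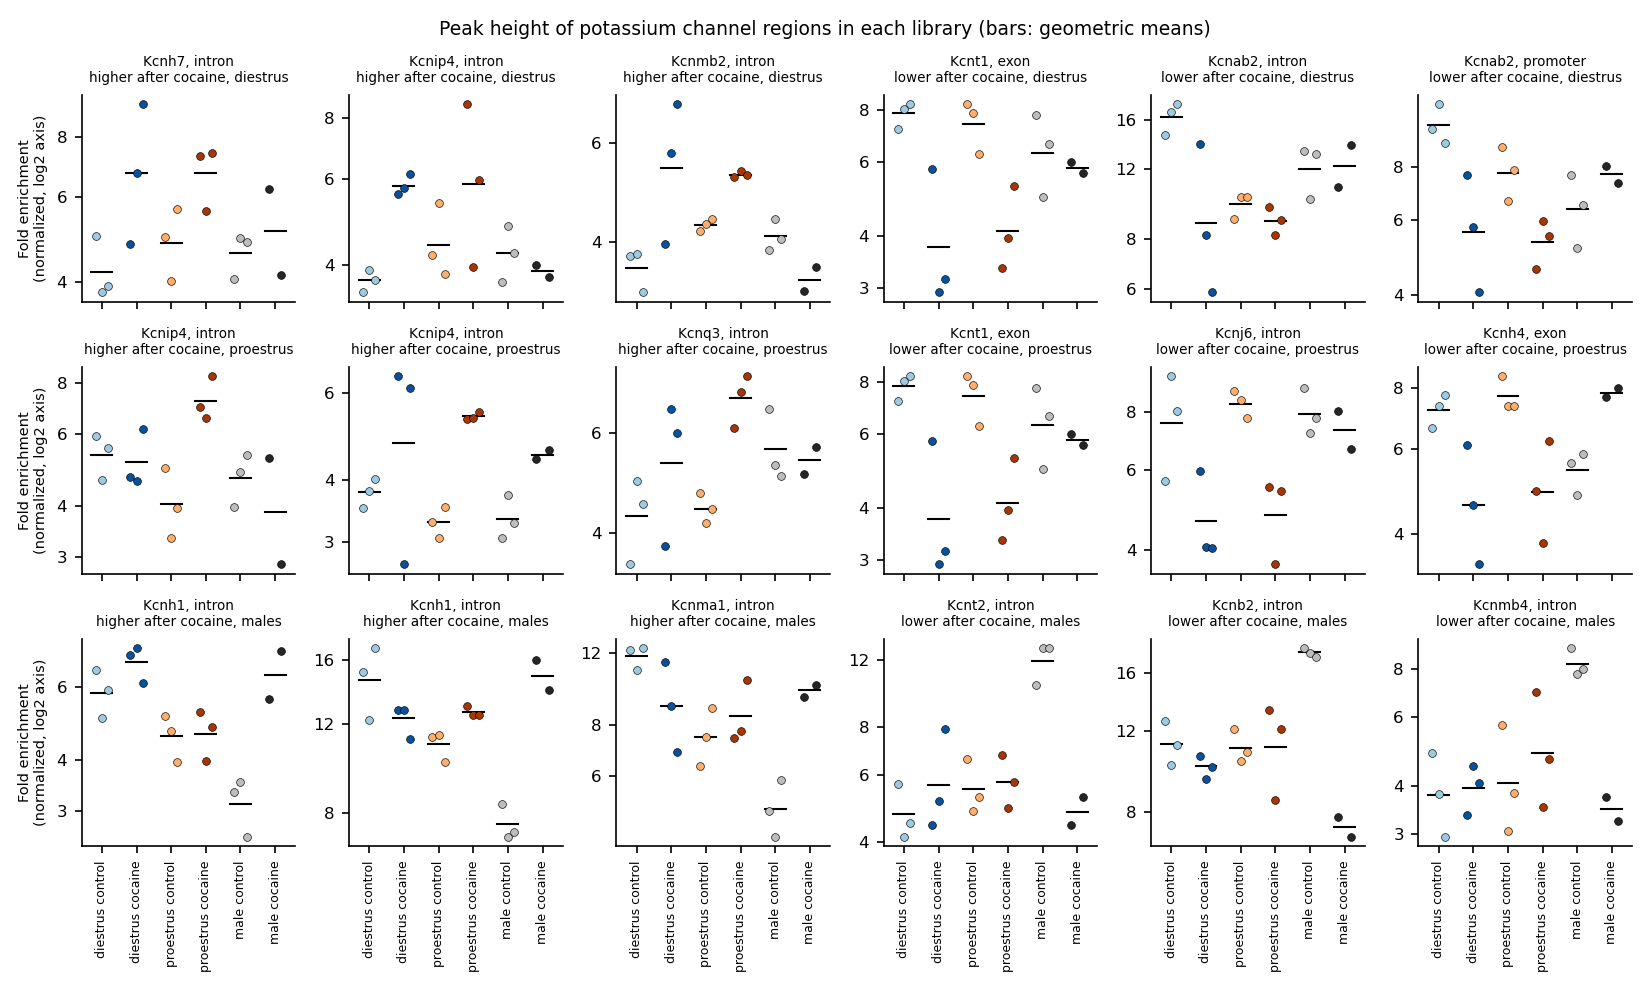
Height (normalized fold enrichment, log2 axis) of the 3 regions with the largest change in each direction in diestrus (top), proestrus (middle) and males (bottom), in each of the 17 libraries. Points are libraries by group and bars are geometric means. In the bottom row the male controls stand apart, at 10.3 to 12.9 at Kcnt2 and at 7.20 to 8.36 at the second Kcnh1 region, and the male cocaine libraries lie nearer to the females.

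Leaving out male cocaine library 1 or 2 left 4 or 2 higher and 9 or 7 lower regions, and the higher count was 4 without male control library 2 or 3. The lower count was 28 without diestrus cocaine library 1, and 27 without proestrus cocaine library 2. These 2 libraries enter only through the shared normalization and the estimate of the spread. The shares over all regions in these fits are not given here. The summed height of the striatal projection neuron promoters moved as well, from 45.9 to 52.0 in male controls to 63.1 and 64.2 after cocaine, and 2 of its 6 members, Drd2 (0.80, adjusted p = 0.00777) and Gad1 (0.69, adjusted p = 0.00666), were higher. The part of this in the channel results was not tested. The effect of cocaine in males minus the mean effect in females was higher in 33 (10.4%, against 9.81% of all) and lower in 29 channel regions (9.18%, against 9.90% of all). Of the 63 channel promoters, 11 were higher and 0 lower in this test (limma), against 13% and 10.1% of all promoter regions.

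Next, male and female controls were compared. In male controls, 36 channel regions were higher (11.4%, against 13.1% of all autosomal regions) and 40 lower (12.7%, against 12.8% of all). These comparisons use the same male controls as those of cocaine in males, so the values are placed side by side without further reading. By the rule used above, the regions highest in males were those of Kcnt2 (1.23 ± 0.17, adjusted p = 2.62e-06), Kcnq5 (1.11 ± 0.16, adjusted p = 8.76e-06) and Kcnmb4 (1.06 ± 0.19, adjusted p = 0.000135). Among those lowest were regions of Kcnma1 (-0.91 ± 0.15, adjusted p = 5.15e-05) and Kcnh1 (-0.75 ± 0.17, adjusted p = 0.0015). After cocaine in males the same regions changed by -1.31, -0.90 and -1.24 and by 0.96 and 0.71.

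At promoters, 4 channel regions were higher (6.35%, against 14.7% of all autosomal promoter regions) and 10 lower (15.9%, against 8.71%) in male controls. Higher were Kcnj3 (0.65), Kcnh8 (0.52), Kcnc2 (0.46) and a promoter region of Kcnn2 (0.40). Among the lower were the projection neuron inward rectifier Kcnj4 (-0.59 ± 0.11, limma, adjusted p = 0.000392), Kcnc1 (-0.55), Kcnh4 (-0.53), Kcnj11 (-0.51), Kcnk7 (-0.43), Kcnip2 (-0.36) and Kcnab3 (-0.33). Also lower were a promoter region inside Kcnt1 (-0.68, chr2:25877130-25879515) and the downstream promoter of Kcnab2 (-0.47). The region over the start of the Kcnt1 gene, chr2:25862484-25866090, did not go this way. Its deposited fold enrichments were 9.82, 5.65 and 7.03 in male controls. They were 5.29, 6.59 and 5.81 in diestrus and 4.86, 5.45 and 5.02 in proestrus controls. The Kcnj4 promoter had a mean log2 height of 3.04 ± 0.17 in male controls, against 3.59 ± 0.11 in diestrus and 3.66 ± 0.10 in proestrus controls (SD, n = 3 each). Of the 6 striatal projection neuron promoters, 5 were also lower in male controls, as was 1 of the 3 neuronal promoters, Rbfox3 (-0.47). The part of this list in the channel results was not tested. The lower count was 19 without male control library 2 and 20 without library 3, and the shares over all regions in these fits are not given here. Between diestrus and proestrus controls, 0 channel regions were higher in diestrus (0.516% of all were) and 1 was lower (0.316%, against 0.176% of all). This was an intronic region of Kcnab1 (-0.68).

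Regions below the threshold of some libraries were compared by whether a peak was called. In diestrus, 10 channel regions were called in all 3 cocaine and in none of the control libraries (0.684%, against 1.16% of all regions) and 20 showed the converse (1.37%, against 1.26%). In proestrus, 37 were gained in this sense (2.53%, against 2.45%) and 23 lost (1.57%, against 1.64%). In males, 24 were gained (1.64%, against 1.66%) and 249 lost (17%, against 16.8%). The large male count coincides with the low peak numbers of the male cocaine libraries. With the same number of strongest peaks taken from each library, 69 channel regions were lost in males (8.19%, against 9.37% of all) and 34 gained (4.03%, against 4.14%).

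The 10 regions gained in diestrus were 9 intronic regions and 1 in the flank of Kcnj2, with 3 in Kcnip4 and 1 each in Kcnq5, Kcnk2, Kcnh1, Kcnd2, Kcnc2, Kcnj2 and Kcnq3. Of these, 6 held the AP-1 letters, the regions of Kcnk2, Kcnh1, Kcnd2, Kcnc2 and Kcnq3 and 1 of Kcnip4, whose sequences are printed above. Among all regions gained in diestrus, 22.1% held them. Of the 20 channel regions lost in diestrus, 0 held them, against 3.38% of all lost regions. In proestrus 4 of 37 gained channel regions held them (10.8%, against 17.4% of all gained regions), in Kcnb2, Kcnq5, Kcnc2 and Kcnn2, and in males 0 of 24 (4.12% of all).

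The peaks behind these calls were low. The Kcnd2 region, chr6:21437151-21437690, had deposited fold enrichments of 3.32, 4.15 and 2.76 in the diestrus cocaine libraries, and it was also called in all proestrus cocaine libraries, in 1 proestrus control and in 2 male controls. The Kcnip4 region with the AP-1 letters, chr5:48563944-48564394, was at 3.21, 3.52 and 3.10 in the diestrus cocaine libraries and was called in no other library. The Kcnk2 region, chr1:189313742-189314479, was at 3.80, 3.02 and 2.64 in diestrus cocaine libraries but was called in every proestrus library and every male control as well. Its absence from the diestrus controls sets it apart, and it was also absent after cocaine in males.

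Gained in both female stages were 2 channel regions (0.137%, against 0.202% of all regions), both intronic. That of Kcnc2, the fast delayed rectifier of the Kv3 family, lay at chr10:112390058-112390608 and was at 2.26, 3.90 and 3.33 in diestrus and at 4.51, 2.67 and 3.25 in proestrus cocaine libraries. It was not called in any control or in any male library, and it holds the AP-1 letters 81 bp from the summit. That of Kcnip4 lay at chr5:49433641-49434781, at 2.97, 2.89 and 2.87 in diestrus and at 2.60, 2.78 and 2.30 in proestrus cocaine libraries, also with no call elsewhere. In males and in either female stage 0 channel regions were gained, as were 18 (with diestrus) and 70 (with proestrus) of all 147420 regions. An intronic Kcnq3 region at chr15:66226925-66228140 was lost in diestrus and in males, as were 266 of all regions.

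Of the 96 channel promoter regions, 0 were gained or lost in diestrus, where 0.494% of all promoter regions were gained and 0.216% lost. In proestrus 2 were gained (2.08%, against 0.528% of all promoter regions), at Kcnmb2 (3.10, 4.71 and 2.62 in the cocaine libraries) and at Kcnc2 (3.20, 3.53 and 2.62), both also called in every male control. In males 9 were lost (9.38%, against 4.57%), 2 at Kcng4 and 1 each at Kcnj10, Kcng1, Kcnmb2, Kcnc2, Kcns3, Kcnk5 and Kcnk9. Their fold enrichments in male controls lay between 2.42 and 4.72. The lost Kcnk9 promoter region, at 2.42, 3.58 and 3.29 in male controls, was called in no other library. Another promoter region of Kcnk9 was called in 5 libraries. Kcng1 and Kcnc2 each had another promoter region that was called in all 17 libraries.

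Over all libraries, whether channel regions were called more or less often in 8 cocaine than in 9 control libraries was tested by Fisher's exact test (two-sided) in the 699 channel regions called in 4 to 13 libraries. After adjustment over 64304 regions, 0 were called more and 0 less often (0% of all in each direction). At an unadjusted p below 0.05, 20 were called more often (2.86%, against 3.81% of all) and 63 less often (9.01%, against 9.23%). The smallest p of a channel region was 0.00226 (exact, adjusted p = 0.216). It was reached by the Kcnc2 and Kcnip4 regions above, called in 6 cocaine and 0 control libraries, and by 3 intronic regions of Kcnma1, called in 7 control and 0 cocaine libraries. Those lay at chr14:23466344-23467391, chr14:23563238-23563922 and chr14:23588732-23589687, with deposited fold enrichments of 2.34 to 4.96 where called.

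Between controls, 98 channel regions were called in every male and no female library (6.71%, against 7.20% of all autosomal regions) and 3 in every female and no male library (0.205%, against 0.317%). The 98 were spread over 33 genes, and Kcnq5 and Kcnip2 were among the genes of the 3. In diestrus but not proestrus controls 51 were called (3.49%, against 3.96%), and 13 the other way (0.890%, against 0.792%).

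Proteins that assemble with channels or share their currents were listed as well. Of 13 partner genes (among them Dpp6, Dpp10, Amigo1, Abcc8, Abcc9, Lrrc26, Lrrc38, Lrrc52 and Lrrc55), 10 had a promoter in all 17 libraries and 3, Abcc9, Lrrc38 and Lrrc52, had none. After cocaine, 2 were higher and 1 lower in diestrus, 0 higher and 1 lower in proestrus, and 1 higher and 0 lower in males (limma). Over all promoter regions, the diestrus shares were 13% higher and 5.35% lower, the proestrus shares 0.848% and 1.79%, and the male shares 2.71% and 1.72%. The partner that passed in all 3 cocaine comparisons was Abcc8, the sulfonylurea receptor that assembles with Kcnj11, at -0.76 in diestrus, -0.92 in proestrus and 0.80 in males. It was named after its values were seen.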

How the data were processed

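Neuronal accessibility was measured by ATAC-seq in 17 libraries of 6 groups, read from the sample labels. The authors aligned reads with BWA to mm10 and called peaks in each library with MACS2 (versions not given in the sources used here). The deposited peak tables hold, per the file columns, a score, a fold enrichment (a linear ratio of the summit over the background of that library), a −log10 p and a −log10 q. No read counts were used, so the count test of the study was not run, and fold enrichments were compared instead. The 0 identical pairs of libraries gave no reason to merge any.

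Peaks of the autosomes (chromosomes 1 to 19) and of X that overlapped by 1 bp or more were merged, and regions called in at least 2 libraries of 1 group were kept. A region was gained or lost where every cocaine library and no control library of a sex and stage called it, or the converse, which carries no p. Calls over 8 cocaine and 9 control libraries were compared by the two-sided Fisher's exact test in regions called in 4 to 13 libraries. Heights of regions called in all 17 libraries (the highest peak per region) were quantile-normalized on the log2 scale and fitted with limma 3.58.1 (R 4.3.3, group means, intensity trend) over all such regions. All p-values were Benjamini-Hochberg adjusted with a threshold of 0.05. Regions were joined to genes and motifs with Python 3.11.15, pandas 2.3.3, scipy 1.17.1 and pysam 0.24.0 on the mm10 reference with GENCODE vM21. The steps were tested on simulated data. Alternatives were median centring, centring within 20 GC bins, a −log10 q of at least 5, equal numbers of strongest peaks, wider gene windows, a replicate block and leaving out each library.

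The channel genes, the gene lists and the tests were chosen with earlier results of these data known. The text names the 3 regions with the largest change in each direction and comparison, regions gained or lost in more than 1 sex or stage, promoters gained or lost, the genes with the most or no regions, the tallest regions and listed genes by role. Some items are not reported here. The promoters called by height and the 3 Kcnma1 regions of the Fisher test were named after their values were seen.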

Additional observations from a re-analysis of the deposited data

Results flagged for a closer look

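The effect of cocaine in males minus its mean effect in females passed the test (limma, adjusted p below 0.05) at 10 of the channel regions described by name. It was positive, on the log2 scale, at Kcnh4 chr11:100748240-100751156 (1.19, adjusted p = 0.00185), Kcnma1 (1.08, adjusted p = 0.00234), the Kcnh1 regions starting at 192437868 (0.99, adjusted p = 0.00051) and 192240831 (0.90, adjusted p = 0.00826), the downstream promoter of Kcnab2 (0.96, adjusted p = 0.00868) and Kcnt1 (0.83, adjusted p = 0.0318). It was negative at Kcnt2 (-1.47, adjusted p = 0.000318), Kcnmb4 (-1.39, adjusted p = 0.00193), Kcnb2 (-1.17, adjusted p = 0.000157) and Kcnmb2 (-0.70, adjusted p = 0.0299). The change after cocaine passed the test in diestrus at Kcnt1, Kcnh4, Kcnab2 and Kcnmb2, and in males at Kcnt2, Kcnb2, Kcnmb4, Kcnma1 and both Kcnh1 regions. These regions were picked for a large change in 1 sex or stage, so the difference is a description of them. No test for an outlying library was made within groups, since all groups hold 2 or 3 libraries. Diestrus cocaine library 1 is described beside the diestrus counts.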

How the results depend on the processing

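No named region changed direction under any alternative, but these regions were picked for large changes. Counted over named regions and fits with 1 library left out, the change still passed the test in 266 cases and not in 40. Under the other alternatives it still passed in 38 cases and not in 16. Most fits with 1 library left out dropped a library of a group outside the comparison. Of the 3 higher proestrus regions, 1, 0 and 0 still passed without proestrus control libraries 1, 2 and 3. Without proestrus cocaine libraries 1, 2 and 4, 1, 3 and 0 of them still passed. Median centring gave 1 higher region in proestrus and 16 in males. Centring within GC bins gave 3 lower in proestrus, and 1 higher and 2 lower in diestrus than proestrus controls. With a −log10 q of at least 5, 881 channel regions were kept. In diestrus 7 were lost (0.795%, against 1.01% of all regions). In proestrus 20 were gained (2.27%, against 2.29%) and 11 lost (1.25%, against 1.05%). In males 5 were gained (0.568%, against 0.551%) and 161 lost (18.3%, against 18.9%). Called only in female controls were 0 (0.156% of all), only in diestrus 31 (3.52%, against 3.64%) and only in proestrus controls 2 (0.227%, against 0.62%). With equal numbers of strongest peaks, 843 channel regions were kept, and 5 were lost in diestrus (0.593%, against 1.21% of all). Gained in proestrus were 19 (2.25%, against 2.38%), and lost in males 69 (8.19%, against 9.37%). Called only in male controls were 46 (5.46%, against 6.14%), only in diestrus 24 (2.85%, against 3.15%) and only in proestrus controls 8 (0.949%, against 1.05%). Regions called in any library numbered 2902. The cause of these shifts was not tested, apart from fewer peaks entering the last settings.

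With 1 library left out, counts of higher regions ranged from 0 to 45 in diestrus, 0 to 13 in proestrus and 2 to 15 in males, and of lower regions from 2 to 49, 0 to 24 and 7 to 28. Between male and female controls they ranged from 24 to 42 higher and 19 to 48 lower, and between diestrus and proestrus controls from 0 to 4 and 0 to 3. Gained regions ranged from 15 to 31 in diestrus, 47 to 93 in proestrus and 25 to 41 in males, and lost regions from 24 to 96, 25 to 60 and 284 to 350. Regions called only in male, female, diestrus and proestrus controls ranged from 99 to 133, 3 to 11, 59 to 91 and 17 to 38. Fewer libraries make such a separation easier by construction. For the fits and calls with 1 library left out, the shares over all regions are not given here. The Fisher test gave 0 in each.

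Replicate numbers did not pair the libraries (correlations of deviations from -0.245 to 0.149). With the replicate block, 3 regions were higher and 16 lower in diestrus, 0 and 0 in proestrus, 4 and 10 in males, 44 and 52 in male against female controls and 8 and 3 in diestrus against proestrus controls. For the calls, the block was an exact sign test over same-numbered cocaine and control libraries, which gave 0 and 0. With so few pairs this test could hardly pass after adjustment over all tested regions, so nothing is read from it.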
